A study of Drosophila melanogaster with 7 samples.

Results

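The genes described here are those that make, carry and sense dopamine in the brain of Drosophila melanogaster: ple, Ddc, Pu, Vmat, DAT, Dop1R1, Dop1R2, Dop2R and DopEcR. They were taken by name from the deposited table of normalized counts, and all 9 were found on intact lines, of 14476 intact gene lines in all. All 9 had a mean of at least 10 normalized counts over the 7 libraries and so entered the test with 7287 genes in total. The knockdown brains were of the strain Actin-GAL4 UAS-sh-circMbl, in which a short hairpin targets circMbl, a circular RNA from the muscleblind gene. The control brains were of the strain Actin-GAL4 UAS-sh8MM, which carries a hairpin mismatched to it. Actin-GAL4 drives either hairpin throughout the body, so the depletion is not specific to dopamine neurons. All titles name day 3, and 2 knockdown and 5 control libraries were sequenced from the 3' ends of polyadenylated RNA. The sources used here give neither sex nor the number of brains in a library.

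Dopamine is made from tyrosine in a short chain of enzymes. Tyrosine hydroxylase, encoded by ple (pale), makes L-DOPA with tetrahydrobiopterin as its cofactor, whose synthesis begins with GTP cyclohydrolase, the product of Pu (Punch), and the DOPA decarboxylase Ddc turns L-DOPA into dopamine. The vesicular transporter Vmat loads monoamines into synaptic vesicles, and the plasma membrane transporter DAT (the fumin gene) takes released dopamine back up. Dop1R1 and Dop1R2 are receptors related to the D1 class of vertebrates and Dop2R to the D2 class, while DopEcR responds to dopamine and to ecdysteroids. In the fly brain these genes are known for their parts in arousal and sleep, learning in the mushroom body and locomotion. In the brain, ple and DAT are made mainly by a small set of neurons, and Ddc also by serotonin neurons. The receptors are made by many kinds of cells that respond to dopamine.

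The libraries held between 3260649 and 5546121 counted reads in the lines used, with both knockdown libraries (3260649 and 3308580) below every control. The titles put both knockdown libraries in lane code L2 under one date, and the controls under another date in lane codes L5 (control replicates 2 and 3) and L7 (control replicates 1, 4 and 5). Genotype, date and lane code therefore cannot be told apart. Controls of the 2 lane codes themselves differed in 28.2% of all genes tested (limma, adjusted p under 0.05), so each gene is given below also against each lane code. Title numbers recur between libraries: number 2 for knockdown replicate 1 and control replicates 3 and 5, and number 3 for knockdown replicate 2 and control replicates 2 and 4. Whether same-titled controls share their RNA is not stated, nor whether each library comes from its own animals. The spread that p-values measure is therefore that between libraries, and it may be technical. Linear mbl transcripts, which do not measure the circle, stood at 2769.7 and 2304 normalized counts in knockdown brains, and at 3323, 3602, 4122, 3341.0 and 3430.0 in control replicates 1 to 5. They were lower than L5 controls (adjusted p = 0.00456) and than L7 controls (adjusted p = 0.0105), and did not pass over all controls (adjusted p = 0.0694, all by limma).

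DAT was the one dopamine gene that passed the test in knockdown brains, where it fell to 1.82-fold below the controls. Against the control libraries of each lane code, DopEcR was also lower and Dop2R higher. The synthesis genes ple, Ddc and Pu and the vesicular transporter gene Vmat did not pass over all controls. Of the 9 genes, 0 rose and 1 fell (limma, adjusted p under 0.05; by limma-voom 0 in either direction), against 3.47% higher and 2.63% lower among all genes tested, or 6.11% in either direction. Knockdown and control values did not overlap for 5 of the 9 (DAT, Dop1R1 and DopEcR lower, Dop2R and Pu higher). Among all genes tested 32.4% did not overlap, 15.9% lower and 16.6% higher in knockdown brains. The same 5 had an unadjusted p under 0.05, against 25.5% of all genes tested. In bulk tissue, fewer cells of a type and less RNA per cell cannot be told apart.

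**Figure D1:**
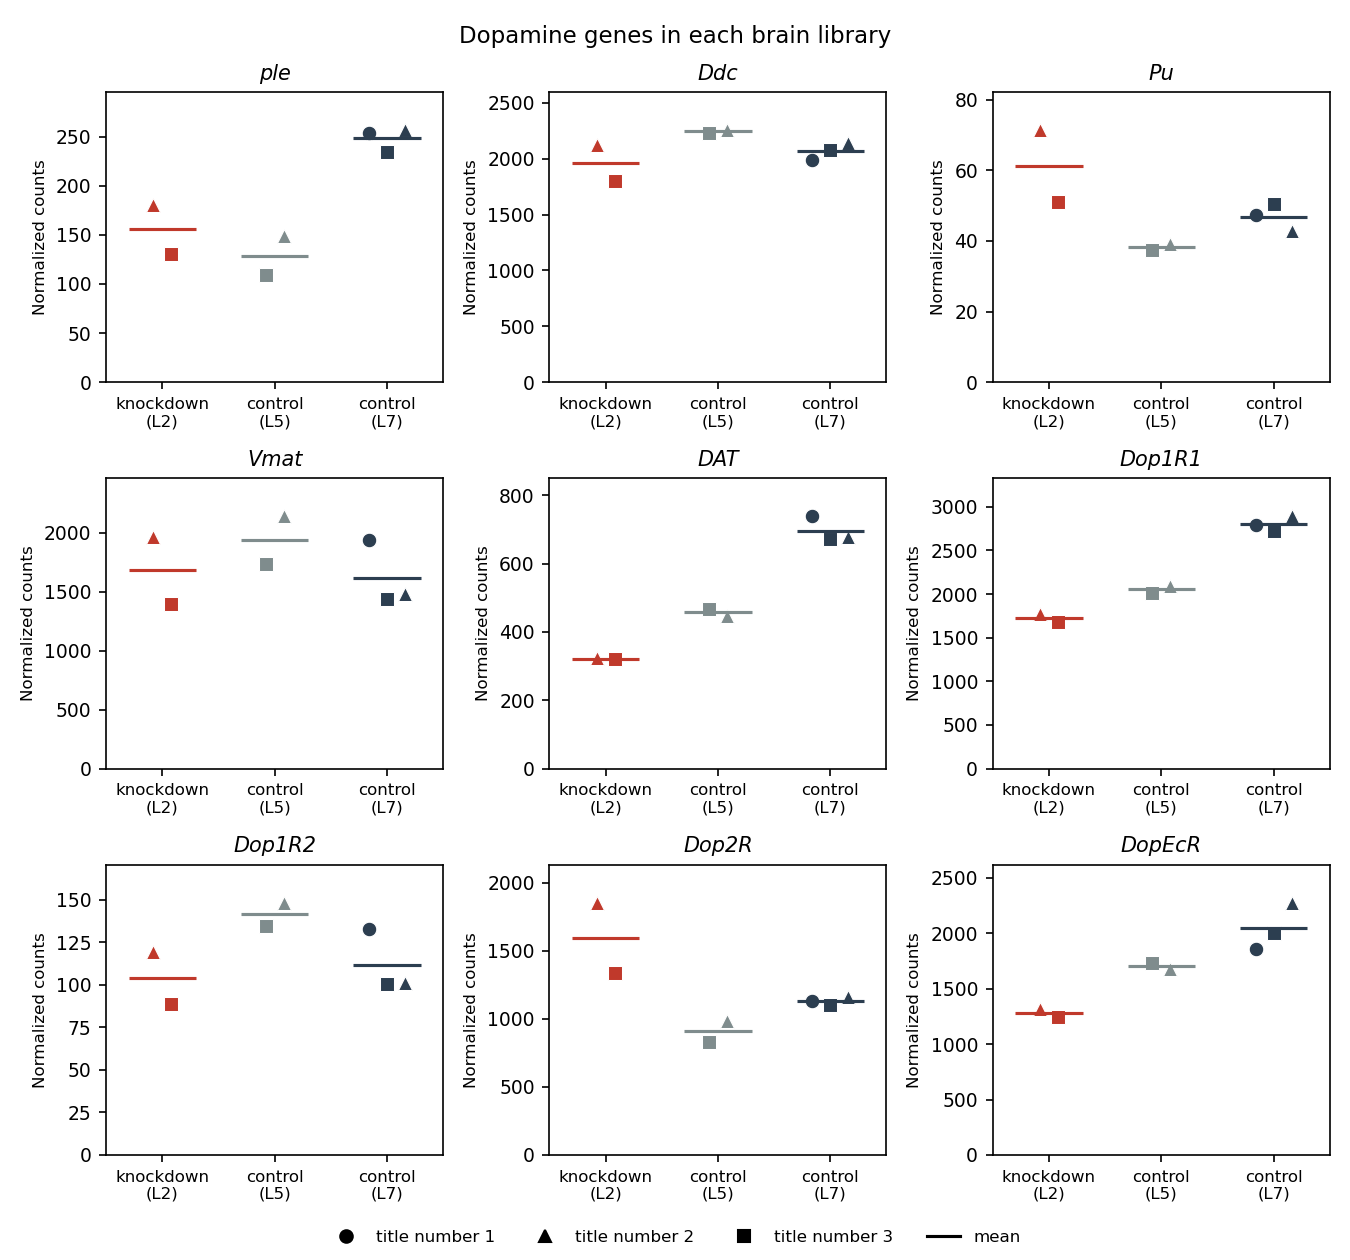
Normalized counts (linear axis from 0) of each dopamine gene in each library, in knockdown brains (lane code L2, n = 2) and in control brains of lane codes L5 (n = 2) and L7 (n = 3). Points are libraries, shaped by title number, and bars are means. DAT lies at 322.3 and 321.6 in knockdown brains, below every control, while ple at 181 and 130.3 lies between the means of the 2 control lane codes.

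The synthesis genes came first in the pathway and showed no difference that held against both sets of controls. The ple gene (FBgn0005626, 3L from 6713356 to 6719525 on BDGP6, the dm6 assembly, minus strand) held 181 and 130.3 normalized counts in knockdown replicates 1 and 2. In control replicates 1 to 5 it held 254, 109, 148, 234 and 257. The knockdown values lie within the control range, and the controls themselves split, with the L7 libraries near each other and the L5 libraries far below them. The means were 155 ± 35.6 (SD, n = 2) in knockdown brains and 200.3 ± 67.5 (SD, n = 5) in controls, a log2 difference of -0.30 ± 0.34 (SE; limma, adjusted p = 0.619). It was 0.27 ± 0.19 against L5 controls and -0.69 ± 0.17 against L7 controls, with adjusted p-values of 0.333 and 0.00995 in the limma fit of 3 groups. The sign of the ple difference thus depends on which controls are used. Controls of L5 were lower than controls of L7 by -0.96 ± 0.17 on the log2 scale (limma, adjusted p = 0.00198), a larger difference than that between knockdown and control libraries.

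Ddc (FBgn0000422, 2L from 19116483 to 19120306, minus strand) varied least among the controls, with a coefficient of variation of 5.12%. It held 2122 and 1803 normalized counts in knockdown brains, and 1989.5, 2229, 2258, 2080.0 and 2144 in control replicates 1 to 5. One knockdown value lies among the controls and the other below all of them. The log2 difference was -0.13 ± 0.12 (SE; limma, adjusted p = 0.555), with -0.20 ± 0.10 against L5 and -0.08 ± 0.09 against L7 controls. The last 88 bases of Ddc overlap CG10561, a protein-coding gene on the opposite strand. No source used here states the strand setting of the counting, so reads in the overlap could belong to either gene. CG10561 itself held 357 and 428 normalized counts in knockdown brains and between 447 and 671 in controls, and did not pass (limma, adjusted p = 0.128).

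Pu (FBgn0003162, 2R from 21175315 to 21182608, plus strand) held 71.5 and 51.2 normalized counts in knockdown brains. In control replicates 1 to 5 it held 47.4, 37.5, 39.1, 50.3 and 42.8. Both knockdown values exceed every control, by less than 1 normalized count for the lower of them. These are the lowest counts of the 9 genes, between 41 and 61 reads a library, and counting error alone was 15.6% at the lowest. The log2 difference of 0.48 ± 0.21 (SE) did not pass (limma, adjusted p = 0.194), nor did it against L5 controls (0.65 ± 0.23, adjusted p = 0.0658) or L7 controls (0.36 ± 0.21, adjusted p = 0.199).

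The transporters differed from one another. DAT (FBgn0034136, 2R from 16558567 to 16565238, minus strand) held 322.3 and 321.6 normalized counts in knockdown replicates 1 and 2, from 248 and 264 reads. In control replicates 1 to 5 it held 739, 467, 447, 671 and 677. Every control stood above both knockdown libraries, the L5 controls nearest to them and the L7 controls highest. The means were 322 ± 0.553 (SD, n = 2) in knockdown brains and 600.4 ± 134 (SD, n = 5) in controls. The knockdown pair differed by 0.243%, less than the 8.84% expected from counting error alone, so its SD understates the error of these values. The log2 difference was -0.87 ± 0.22 (SE) and passed narrowly (limma, adjusted p = 0.0495).

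The fall of DAT was present against either set of controls but its size was not the same. It was -0.50 ± 0.10 on the log2 scale against L5 controls and -1.11 ± 0.09 against L7 controls, with adjusted p-values of 0.00691 and 2.65e-05 in the limma fit of 3 groups. Controls of L5 were themselves lower in DAT than controls of L7 (-0.60 ± 0.09, limma, adjusted p = 0.000836). Over 19 other settings of the fit the difference was negative in 19 and passed in 10. With both knockdown libraries kept, adjusted p-values ran from 7.22e-05 (L7 controls only) to 0.14 (block on title number) by limma. Since every control stood above both knockdown libraries, the sign had little room to turn. The settings share libraries and are not independent. The setting against the mean of both lane codes, which passed, was chosen after seeing the data. The call over all controls ended without knockdown replicate 1 (adjusted p = 0.271) or 2 (0.235) and without control replicate 1 (0.0809), 4 (0.0935) or 5 (0.106), the L7 libraries, in the same limma test. It also ended with no filter beyond a mean above 0 (adjusted p = 0.0592) and by limma-voom on recovered reads (0.06). The line was matched by the symbol DAT. A separate line named Dat, a synonym of both this gene and the arylalkylamine N-acetyltransferase gene speck, was not used.

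Vmat (FBgn0260964, 2R from 13513132 to 13534251, minus strand) held 1965 and 1398 normalized counts in knockdown brains. In control replicates 1 to 5 it held 1939.7, 1733, 2141, 1437 and 1479. One knockdown value lies within the control range and the other just below it. Its log2 difference was -0.06 ± 0.20 (SE; limma, adjusted p = 0.878). The sign turned without knockdown replicate 2 (0.19), without control replicate 3 (0.02) and against L7 controls (0.05).

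The receptors split by gene: Dop1R1 and DopEcR lay lower in knockdown brains, Dop2R higher and Dop1R2 within the controls but for its lower library. DopEcR (FBgn0035538, 3L from 4367649 to 4380387, minus strand) held 1314 and 1246 normalized counts in knockdown brains, against 1860.4, 1734, 1674, 2002 and 2276 in control replicates 1 to 5. Both knockdown libraries lie below every control. Mean levels were 1280.0 ± 48.1 (SD, n = 2) in knockdown brains and 1909 ± 240.4 (SD, n = 5) in controls, and the log2 difference of -0.57 ± 0.14 (SE) narrowly missed the test over all controls (limma, adjusted p = 0.0521). In the 3-group limma fit it fell by 0.41 ± 0.11 below L5 controls (adjusted p = 0.0226) and by 0.67 ± 0.10 below L7 controls (adjusted p = 0.000566). Controls of L5 and L7 were not called different in DopEcR (-0.26 ± 0.10, adjusted p = 0.0779).

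Dop2R (FBgn0053517, X from 20004680 to 20062706, minus strand) was the receptor gene with higher values. It held 1855 and 1337 normalized counts in knockdown brains, against 1132, 832, 987, 1103 and 1163 in control replicates 1 to 5. Both knockdown libraries lie above every control, although they differ from each other by 32.4%, against 4.01% expected from counting error. The means were 1596 ± 366 (SD, n = 2) in knockdown brains and 1043 ± 135 (SD, n = 5) in controls. The log2 difference of 0.60 ± 0.18 (SE) did not pass over all controls (limma, adjusted p = 0.0759). In the 3-group fit Dop2R rose by 0.80 ± 0.15 above L5 controls (limma, adjusted p = 0.00414) and by 0.48 ± 0.13 above L7 controls (adjusted p = 0.0178). Over all controls its log2 difference was 0.37 without knockdown replicate 1 and 0.84 without knockdown replicate 2.

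Dop1R1 (FBgn0011582, 3R from 14165379 to 14214810, minus strand), a receptor needed for olfactory learning, held 1777 and 1686 normalized counts in knockdown brains. Control replicates 1 to 5 held 2797, 2018, 2095, 2722 and 2892. The knockdown values lie below every control, and the L5 controls lie between them and the L7 controls, as they did for DAT. The log2 difference of -0.52 ± 0.17 (SE) did not pass (limma, adjusted p = 0.104). Against L7 controls it was -0.70 ± 0.08 and passed (adjusted p = 0.000161), and against L5 controls it was -0.25 ± 0.09 and did not (adjusted p = 0.0753). The difference between control lane codes, -0.45 ± 0.08, passed as well (limma, adjusted p = 0.00263).

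Dop1R2 (FBgn0266137, 3R from 29630304 to 29659984, minus strand) held 119.6 and 88.9 normalized counts in knockdown brains, against 133, 134, 148, 100.7 and 101.2 in control replicates 1 to 5. One knockdown value lies inside the control range and the other below it. Its reads numbered between 73 and 171 a library, and counting error alone was 11.7% at the lowest. The log2 difference was -0.24 ± 0.21 (SE; limma, adjusted p = 0.511), with -0.45 ± 0.19 against L5 and -0.10 ± 0.18 against L7 controls.

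**Figure D2:**
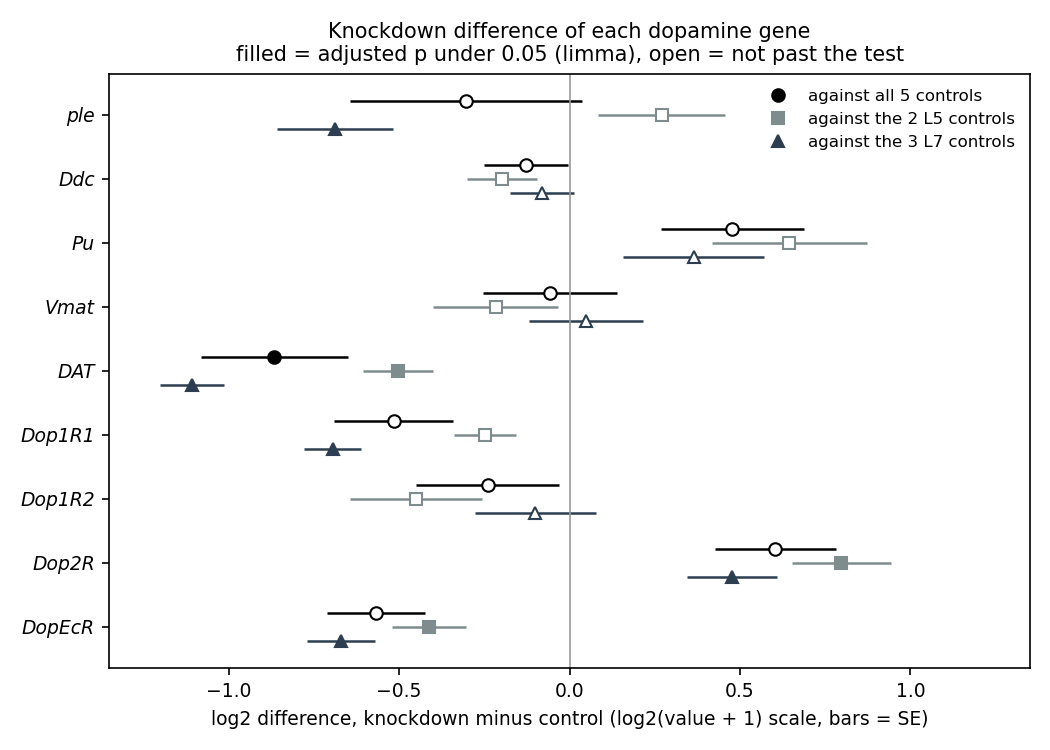
The log2 difference (knockdown minus control) of each dopamine gene against all 5 controls, then against the L5 pair and the L7 trio of controls, with standard errors as bars. Filled points passed the limma test at an adjusted p under 0.05. DAT, DopEcR and Dop2R are filled against both lane codes, while ple lies at 0.27 against L5 and at -0.69 against L7 controls.

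Set against each lane code of controls in the 3-group fit, 3 of the 9 genes passed against the L5 libraries and 5 against the L7 libraries (limma, adjusted p under 0.05). Among all genes tested, 21.6% passed against L5 and 33.6% against L7, so these shares are to be read against a high background. The 3 that passed against both in 1 direction were DAT and DopEcR, which fell, and Dop2R, which rose, where 11.1% of all genes did. Both contrasts use the same knockdown libraries and are not independent. Between the control lane codes, without any difference in genotype, ple, DAT and Dop1R1 differed, 3 of 9 where 28.2% of all genes did. All 3 were lower in L5 than in L7 controls.

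The 9 genes also differed in how well the libraries of a pair agreed. DAT, Dop1R1 and DopEcR differed by 0.243%, 5.26% and 5.31% between the knockdown libraries, and Ddc by 16.3%. For ple, Vmat, Pu, Dop1R2 and Dop2R the difference was 29.4% to 33.7%. The counting error of that difference was 3.59% for Ddc, 3.91% for Vmat and 4.01% for Dop2R, but 12.9% for ple, 15.7% for Dop1R2 and 20.5% for Pu. Knockdown replicate 2 was the lower of the pair for 9 of 9 genes, where 51.7% of all genes tested were lower in it. Between controls of title numbers 3 and 2, title number 3 was lower in 7 of 9 genes in L5 and in 8 of 9 in L7, against 53.8% and 52.4% of all genes. For ple the difference of title number 3 from number 2 was -27.9% in knockdown brains, -26.7% in L5 controls and -8.94% in L7 controls. The genes that were higher in title number 3 were DAT (4.56%) and DopEcR (3.58%) in L5 controls and Pu (17.6%) in L7 controls. In knockdown brains the difference of DAT (-0.243%) was smaller than its counting error (8.84%). The rhodopsin gene ninaE, a marker of photoreceptors, followed title number as well, with 599 (number 2) and 1920 (number 3) normalized counts in knockdown brains. In controls it held 445 and 459 in the number 2 libraries and 1840.4 and 2072 in the number 3 libraries, with 585 in control replicate 1 (number 1). All 10 photoreceptor markers together summed to 4944 (number 2) and 8824 (number 3) in knockdown brains. In controls they summed to 8802 and 9440 in the number 3 libraries and to between 4792 and 5526 in the others. The part of retained eye tissue in the dopamine values was not tested.

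The lines of the table are genes, so the values do not separate isoforms. The annotation gives the 9 genes between 2 and 6 transcripts each. For Ddc, DAT, Pu, Dop1R2 and Dop2R these end at 1 annotated 3' position, for ple, Dop1R1 and DopEcR at 2 and for Vmat at 3. The genes lie on 5 chromosome arms, and 3 of them, DAT, Vmat and Pu, lie on 2R. Besides CG10561 at Ddc, no annotated gene overlaps the outermost 3' end of any of the 9.

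By the rule for likeness, the genes whose log2 values followed those of DAT most closely over the 7 libraries, among 5081 others with a mean of at least 50, were tamo, CG34408 and YT521-B. Their Pearson correlations were 0.995, 0.994 and 0.991, given as a description, since the libraries fall into 3 lane codes that any such pair shares. Because these genes were picked for following DAT, lower values in knockdown brains were favoured by the choice. Their test results below are likewise a description and add no separate support. The gene tamo, which takes part in nuclear import of Dorsal, averaged 398 normalized counts in knockdown brains and 722 in controls and passed the test (limma, adjusted p = 0.0407). YT521-B, a reader of methylated adenosine in RNA, averaged 899 in knockdown brains and 1248 in controls (limma, adjusted p = 0.0895). CG34408 averaged 360.3 in knockdown brains and 515 in controls (limma, adjusted p = 0.098).

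Genes on either side of dopamine in its pathway gave 2 further calls, both rises. Among all genes tested 6.11% passed in either direction, and 25.5% had an unadjusted p under 0.05 (limma), so a few calls are to be read against that background. Of 5 tested genes for the supply of tetrahydrobiopterin and precursor, 0 passed (limma; Hn and pr, 2 of the 5, at an unadjusted p under 0.05). Their median log2 difference was 0.40, against -0.02 over all genes tested, with a median of 0.01 against L5 and 0.59 against L7 controls. The phenylalanine hydroxylase gene Hn held 428 and 509 normalized counts in knockdown brains and between 282 and 422 in controls, a log2 difference of 0.41 ± 0.17 (SE; limma, adjusted p = 0.164). The gene pr (purple), which encodes the enzyme after GTP cyclohydrolase, held 159.9 and 197 in knockdown brains and between 96.4 and 167 in controls (0.57 ± 0.24, adjusted p = 0.171). For pr the difference was 0.20 against L5 controls and 0.82 against L7 controls, the second of which passed (limma, adjusted p = 0.00136). Of 3 tested genes for conjugation of dopamine, 0 passed (limma; 0 at an unadjusted p under 0.05), with a median of -0.27. The gene e (ebony), whose enzyme joins dopamine to beta-alanine, held 734 and 677 normalized counts in knockdown brains and between 749 and 977 in controls (-0.27 ± 0.14, limma, adjusted p = 0.272). The gene b (black), which supplies beta-alanine, held 55.9 and 54.8 against 18.1 to 83.2 (0.63 ± 0.47, adjusted p = 0.446).

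Among 15 tested genes that relay amine receptor signals (G proteins, cyclic AMP enzymes and their targets), 1 rose and 0 fell, with a median log2 difference of 0.18. Over all genes tested 3.47% rose and 2.63% fell. CrebB, the transcription factor that protein kinase A phosphorylates, held 365 and 420.2 normalized counts in knockdown brains and between 234 and 282 in controls. It rose by 0.55 ± 0.14 (SE; limma, adjusted p = 0.0487), and by 0.61 and 0.51 against L5 and L7 controls (adjusted p = 0.00844 and 0.00713). Of 7 tested genes for development and maintenance of dopamine neurons, 1 rose and 0 fell, with a median of 0.03. Fer2, a basic helix-loop-helix factor required for a cluster of protocerebral dopamine neurons, held 49.4 and 52.4 normalized counts in knockdown brains and between 22.2 and 28.4 in controls. It rose by 1.04 ± 0.20 (SE; limma, adjusted p = 0.0249), and by 0.97 and 1.09 against L5 and L7 controls (adjusted p = 0.0205 and 0.00427). Both knockdown values of Fer2 lie above every control, and the 2 control lane codes were not called different (0.12, limma, adjusted p = 0.739). Without knockdown replicate 1 or 2 or control replicate 1, 4 or 5 neither passed over all controls, with adjusted p-values up to 0.284 for CrebB and 0.2 for Fer2, and CrebB did not pass without control replicate 3 either (0.0566). By limma-voom CrebB did not pass (adjusted p = 0.0526) and Fer2 did (0.0223). With the test limited to genes with a mean of at least 50, Fer2 was left out. Its control values lie below every control value of Pu (37.5 to 50.3), and its counting error was not computed.

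**Figure D3:**
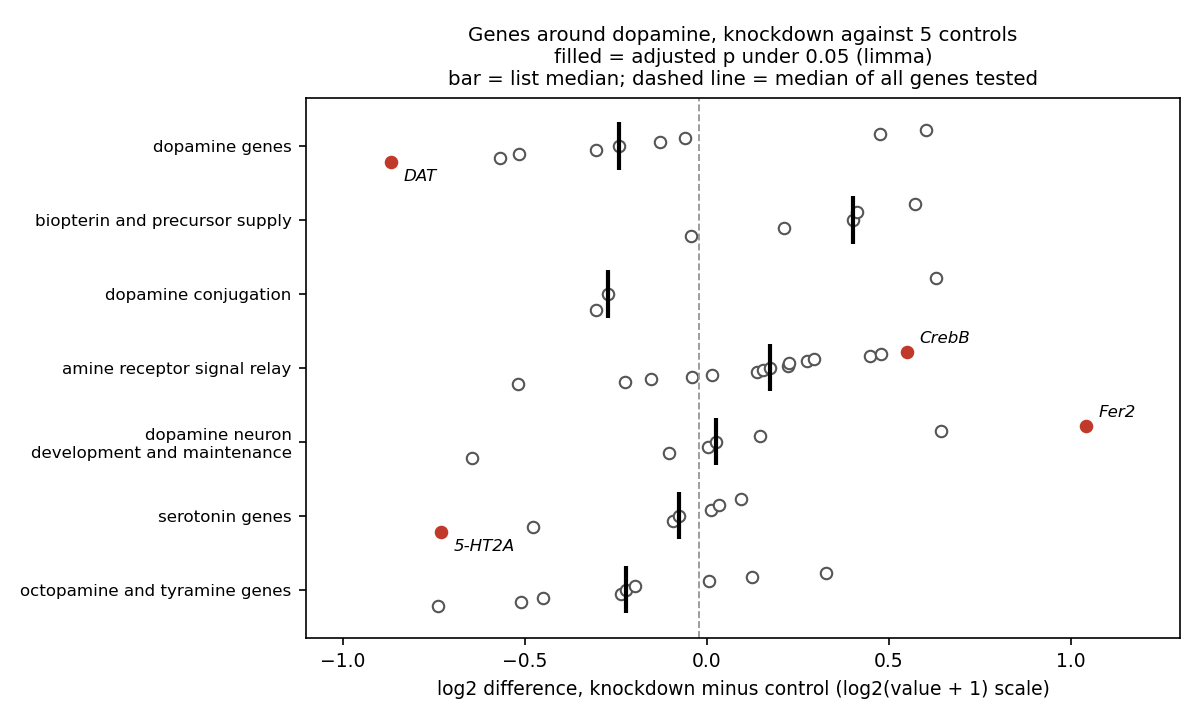
The log2 difference (knockdown minus control, all 5 controls) of each tested gene in the dopamine group and in 6 lists around it. Points are genes, filled where the limma test passed (adjusted p under 0.05), bars are list medians and the dashed line is the median of all genes tested. DAT, CrebB, Fer2 and 5-HT2A are filled, at -0.87, 0.55, 1.04 and -0.73.

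Genes of the other monoamines gave 1 call. Among all genes tested 6.11% passed in either direction, and 25.5% had an unadjusted p under 0.05 (limma). Dopamine genes had a median log2 difference of -0.24, with 1 of 9 passing. Of 7 serotonin genes 1 fell and 0 rose, with a median of -0.07: the receptor gene 5-HT2A held 44.2 and 47.5 normalized counts in knockdown brains and between 73.1 and 80.6 in controls (-0.73 ± 0.15, SE; limma, adjusted p = 0.0296). It did not pass by limma-voom (adjusted p = 0.0511) or without knockdown replicate 1 (0.224) or 2 (0.15) or control replicate 1 (0.0584), 4 (0.0647) or 5 (0.0754). The counting error of 5-HT2A was not computed, and its knockdown values lie below those of Pu in knockdown brains (71.5 and 51.2). Of 9 tested octopamine and tyramine genes 0 passed (limma; 2 at an unadjusted p under 0.05), with a median of -0.22. The receptor genes TyrR (-0.51 ± 0.17, limma, adjusted p = 0.103) and Oct-TyrR (-0.45 ± 0.18, adjusted p = 0.154) had the smallest p-values of that list. Each list here in which 0 genes passed, marker lists included, also had 0 by limma-voom on recovered reads. Whether the lists differ from one another was not tested.

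The summed levels of some marker lists did not overlap between knockdown and control libraries, which also differ in lane code and date. For the neuron, glial and epidermis lists the sums overlapped once a single gene was left out. Among all genes tested 3.47% rose, 2.63% fell and 25.5% had an unadjusted p under 0.05 (limma). Of 5 tested fat body and yolk markers 2 rose (limma; 5 at an unadjusted p under 0.05). The summed level of the 6 with a line in the table was 43997 to 50158 normalized counts in knockdown brains and 14938 to 35906 in controls, with Yp2 the most abundant. Of 5 tested epidermis and cuticle markers, cells that also make dopamine, 1 rose (limma; 3 at an unadjusted p under 0.05). This was y, at 373 and 447 normalized counts in knockdown brains and 100.4 to 136 in controls. The sums of this list were 499 to 646 in knockdown brains and 226 to 454 in controls. Without y, the other 8 summed to 126 and 199 in knockdown brains and to between 117 and 354 in controls, so the groups overlapped, and 2 of the 4 others tested had lower means in knockdown brains. Cpr49Ae, a cuticle protein gene, held 40.3 and 87.7 normalized counts in knockdown brains and 58.3 to 262 in controls (limma, adjusted p = 0.188), and serp had a log2 difference of -0.53 (adjusted p = 0.41). Glial markers summed to between 74827 and 81925 in knockdown brains and between 56628 and 71166 in controls, nearly all from Gs2, with 0 of 6 passing (limma; 1 at an unadjusted p under 0.05). Without Gs2 the glial sums overlapped, at 3920.0 and 4209 in knockdown brains and 3752 to 5447 in controls. Neuron markers, led by Syt1, summed to between 36479 and 40449 in knockdown brains and between 28335 and 33164 in controls. Of the 6 neuron markers 1 rose (limma; 1 at an unadjusted p under 0.05). This was nSyb, at 12461 and 11192 normalized counts in knockdown brains and 4075 to 5326 in controls. Without nSyb, the other 5 summed to 27988.5 and 25287 in knockdown brains and to between 24100 and 27863 in controls, which overlap, and Syt1 itself had a log2 difference of -0.0052. The sums of photoreceptor markers, led by norpA, overlapped between the groups, with 0 of 10 passing (limma; 1 at an unadjusted p under 0.05). Those of muscle markers, led by up, ran from 981 to 1404 in knockdown brains and from 1235 to 2216 in controls, with 0 of 9 passing (limma; 1 at an unadjusted p under 0.05). No listed marker was at 0 in all libraries, and the part of any of these cells in the dopamine values was not tested.

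**Figure D4:**
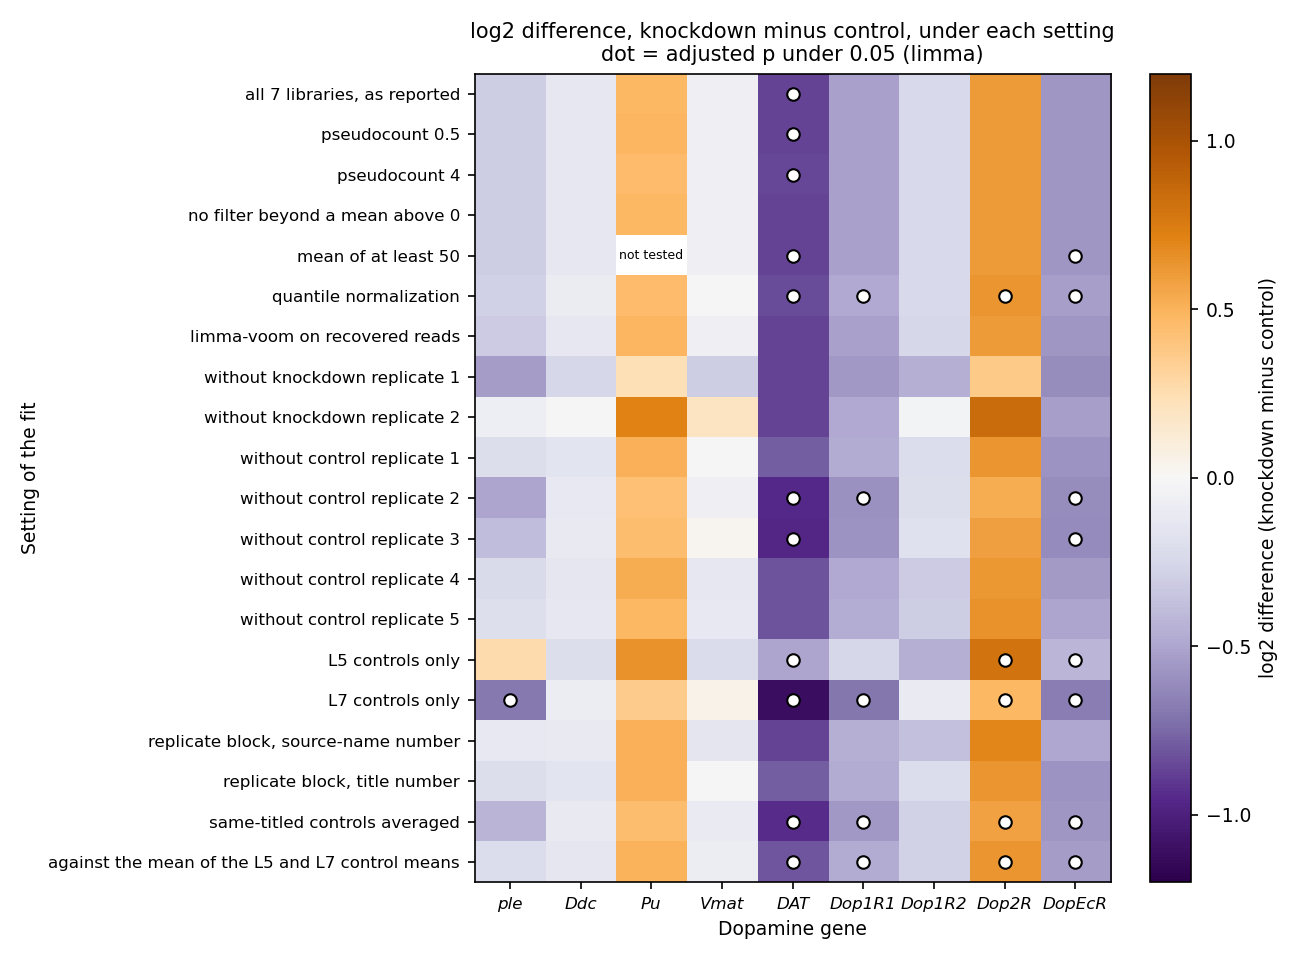
The log2 difference (knockdown minus control, colour scale) of each dopamine gene (columns) under each setting of the fit (rows), with a dot where the limma test passed at an adjusted p under 0.05. DAT is negative in all rows, from -1.11 to -0.50, and has a dot in the reported fit and in 10 of 19 others. DopEcR is negative in all rows, from -0.67 to -0.41, and has a dot in 8 of 19. Dop1R1 is negative in all rows, from -0.70 to -0.25, and has a dot in 5 of 19. Dop2R is positive in all rows, from 0.37 to 0.84, and has a dot in 5 of 19. For each of these genes the knockdown and control values do not overlap, so the sign had little room to turn, and the rows share libraries.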

How the data were processed

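Total RNA from dissected brains was made into CEL-seq2 libraries adapted for bulk RNA, per the labels' protocols. Per the submitters' processing notes STAR and the dm6 build were used. How reads were counted, on which annotation and strand, and whether molecular identifiers were collapsed is not stated in the labels or file headers. The deposited values are normalized counts, a signal whose normalization is not stated by the authors. In intact lines 100% of values above 0 were whole multiples of 1 step per library (within 0.01 of a read), from which reads were recovered; intervals from them cover counting error only. Not used were 2139 lines of a misplaced table, 1 line with a damaged name and 402 columns without a sample. Positions are those of Ensembl BDGP6.

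Values were compared on the log2(value + 1) scale with limma 3.58.1 in R 4.3.3 (mean-variance trend) for genes with a mean of at least 10, and p-values were adjusted by Benjamini-Hochberg over all of them. Fold changes on this scale understate the change of low genes. A second fit used 3 groups (knockdown, L5 and L7 controls). The fit was also run on simulated independent counts with the same spread setting for all genes. These had no lane codes and no shared material, so that run does not show how the fit handles such structure here. No libraries were merged as duplicates: the lowest median chi-square per gene between 2 libraries was 0.958, against 0.455 from sampling noise. The text names the 9 genes, the genes of each pathway list past the test (otherwise the 2 with the smallest p), the 3 genes most like each called dopamine gene, and the most abundant marker of each marker list. The gene mbl is given by its linear transcripts, which do not measure the circle that the hairpin targets. CG10561, ninaE, nSyb, Cpr49Ae and serp were added with their values known. The 9 genes and all lists were chosen with earlier results of these data known.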

Additional observations from a re-analysis of the deposited data

How the results depend on the processing

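The number of genes called over all genes was 445, of which 1 was a dopamine gene. Leaving out 1 library gave 1 to 667 genes and 0 to 3 dopamine genes; without either knockdown library a single library, assumed to vary like the controls, stood against 5. The L5 controls alone gave 1084 genes and 3 dopamine genes, the L7 controls alone 2410 and 5, same-titled controls averaged 1310 and 4, and the mean of both lane codes, chosen after seeing the data, 2019 and 4. No filter beyond a mean above 0 gave 499 genes and 0 dopamine genes, limma-voom on recovered reads 344 and 0, a mean of at least 50 gave 479 and 2, and quantile normalization 490 and 4. With a replicate block on source-name number 120 genes and 0 dopamine genes passed, and with a block on title number 51 and 0. Under these blocks DAT (adjusted p = 0.0817 by source-name and 0.14 by title number), CrebB (0.212 and 0.139), Fer2 (0.203 and 0.0916) and 5-HT2A (0.235 and 0.104) did not pass by limma. The labels do not say that either number marks shared material. Deviations of knockdown and control libraries of the same number, by either label, correlated between -0.03 and 0.14. With only 2 knockdown libraries their deviations mirror each other, so these correlations cannot show whether material is shared. Genes differing between L5 and L7 controls numbered 2057, and 1089 to 1686 without 1 control. Signs turned for ple against L5 controls (0.27) and for Vmat against L7 controls (0.048) and over single libraries left out (-0.30 to 0.19). The cause of these changes was not tested. TMM scaling, edgeR and DESeq2 were not run. Depth limits Pu and Dop1R2 most.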
